A study of Mus musculus with 2 samples.

Results

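Mir132 and Mir212 are 2 microRNA hairpin genes that lie next to each other on mouse chromosome 11. Their reads were followed in small RNA libraries of the hippocampus. The members were chosen by gene symbol alone: the Ensembl IDs of the count tables were matched to GENCODE M21, and the 2 genes named Mir132 and Mir212 were taken out of the 2202 microRNA genes measured. The study holds 1 group of 2 libraries, numbered as biological replicates 2 and 1. Both came from tissue labelled as hippocampal layer of male mice, adult at 8 to 10 months of age, with the strain label 5xFAD/CAST and no treatment named. 5xFAD mice carry mutant human transgenes under the neuronal Thy1 promoter and serve as a model of Alzheimer disease, and CAST mice descend from wild Mus musculus castaneus. The labels do not state whether the sampled animals carried the transgenes. They name 1 donor record for both libraries but a different biosample for each, and do not make clear whether these are 2 animals. Tests between the libraries therefore measure only the spread between these samples, which may be technical. There was no control group, and no effect of genotype, age or neuronal activity could be tested.

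A microRNA is cut from a hairpin in a longer primary transcript, first by Drosha in the nucleus and then by Dicer in the cytoplasm. One strand of the resulting duplex, the 5p or the 3p arm, is loaded into an Argonaute protein and pairs with messenger RNAs mainly through its seed, bases 2 to 8 from the 5′ end. In rodent neurons the primary transcript of miR-132 and miR-212 is known to be induced by synaptic activity, light and neurotrophins through the transcription factor CREB, and miR-132 is known to promote dendrite growth and spine formation. Lower miR-132 has been described in human brain tissue with Alzheimer disease. These statements are background. CREB was not measured here, and the word CREB-driven was not tested by these data.

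The mature sequences are shown first because the shared seed is what joins the members into 1 family. Sequences are from RefSeq on GRCm38.p6, and the capitals mark the seed.
mmu-miR-132-3p: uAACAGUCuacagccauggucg
mmu-miR-212-3p: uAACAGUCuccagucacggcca
mmu-miR-132-5p: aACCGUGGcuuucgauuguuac
mmu-miR-212-5p: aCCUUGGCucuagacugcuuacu
The 3p arms were identical at 17 of 22 positions, with the first 9 bases the same. Counted from the 5′ end of miR-132-3p, the other positions were A10C, C14U, U17C, U20C and G22A. The 5p arms matched at 9 of 22 positions and had different seeds. Among 1679 mature mouse microRNAs of the RefSeq table, AACAGUC was the seed of these 2 alone, and no other microRNA shared the seed of either 5p arm.

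The hairpins themselves are shown because the counts are per hairpin, so no value here separates a 5p arm from the 3p arm of its hairpin. Capitals mark the annotated arms.
Mir132 hairpin: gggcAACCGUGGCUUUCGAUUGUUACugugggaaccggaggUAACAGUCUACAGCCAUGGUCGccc
Mir212 hairpin: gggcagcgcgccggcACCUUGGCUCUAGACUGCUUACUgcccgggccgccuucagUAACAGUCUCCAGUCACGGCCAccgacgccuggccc
Mir132 (ENSMUSG00000065537.2) occupied chr11:75173682-75173747 on the plus strand of mm10, 66 bases with a GC content of 57.6%. Mir212 (ENSMUSG00000065590.1) occupied chr11:75173388-75173478 on the same strand, 91 bases with a GC content of 69.2%. The RefSeq hairpins equalled the M21 transcripts in sequence and position. Mir212 was GC-rich even for a hairpin: of the 389 detected genes, 14 had a higher GC content, against 104 for Mir132, and the median was 52.1%.

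Reads of the 2 members can be told apart from each other and from other hairpins by their sequence. The longest stretch that the Mir132 hairpin shared with any of the other 2201 measured hairpins, on either strand, was 11 bases, and that of the Mir212 hairpin was 12 bases. No mature arm of either member occurred whole in another hairpin. The search covered the annotated hairpins and not the rest of the genome. This sets them apart from 1087 of the 2202 genes, which share 20 bases with a hairpin at another place and whose reads could fit both.

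Both hairpins lay in the first intron of 1700016P03Rik (ENSMUSG00000085609.1), a noncoding gene of 3 exons that runs in the same direction. The intron spans 1380 bases. Mir212 began 828 bases after the annotated start of the host, and Mir132 followed it after a gap of 203 bases. Mir132 ended 230 bases before the second exon of the host. The nearest genes on the other strand were Hic1, which encodes a transcriptional repressor, and Ovca2, which overlaps the 3′ end of the host. The small RNA tables hold no value for the host RNA.

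**Figure D1:**
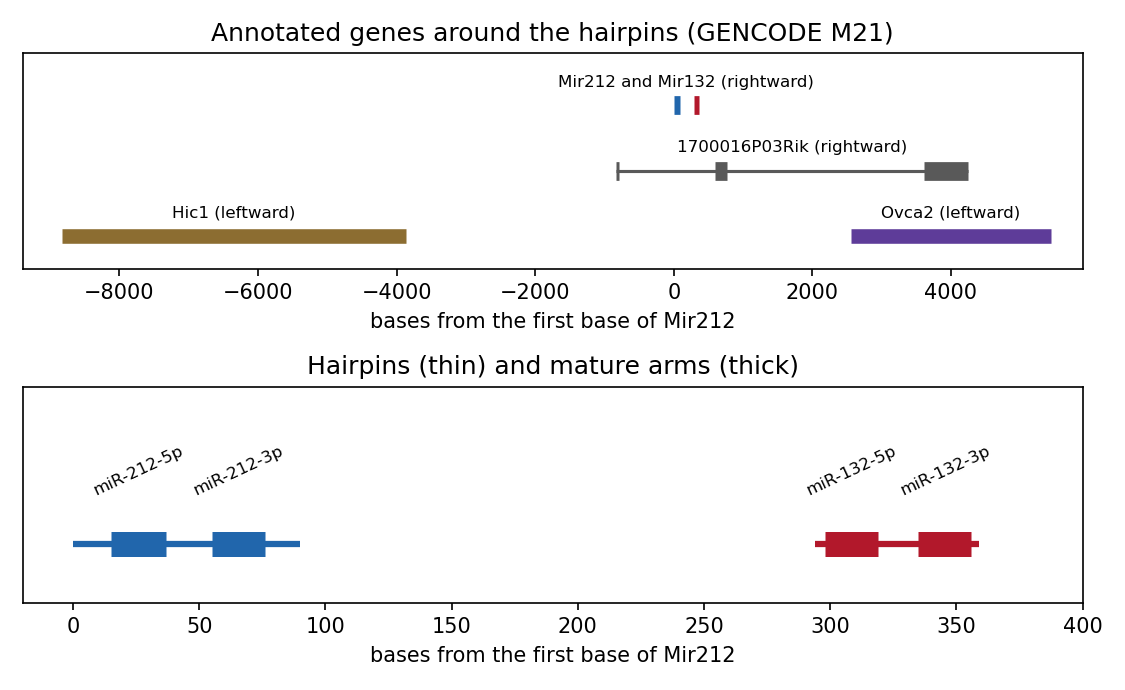
The upper panel shows annotated genes by distance in bases from the first base of Mir212, with exons of 1700016P03Rik as blocks, and the lower panel enlarges the 2 hairpins with their mature arms as thick bars. Mir212 and Mir132 sit 203 bases apart in the first intron of the host, and neither Hic1 nor Ovca2 overlaps them.

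Messenger RNAs were not measured, but the shared seed can be set beside transcripts that earlier work in rodent or human cells names as targets of miR-132. The sequence that pairs with bases 2 to 8 of both 3p arms and ends in A opposite base 1 is GACTGTTA. In the longest annotated 3′ UTR of each of 21007 protein-coding genes of M21, searched on the transcript's strand, 494 genes (2.35%) held it. It occurred in Foxo3, a transcription factor of cell survival, and in Ep300, an acetyltransferase that works with CREB, which serve as illustrations and not as a count. Arhgap32 and Rasa1, which are GTPase-activating proteins, held only the 7-base match GACTGTT, which occurred in 10.7% of genes. The 3′ UTRs had 4490 bases in Foxo3, 1095 in Ep300, 7298 in Arhgap32 and 1324 in Rasa1, against a median of 961 over all genes. A longer UTR has more places for a match, and the shares over all genes were not matched for length. The sites of the longer match are shown with their mm10 positions, the match in capitals.
Foxo3, chr10:42186151-42186180, minus strand: aacccagcagaGACTGTTAgcagccctggc
Ep300, chr15:81652005-81652034, plus strand: atcactgtataGACTGTTAaatttgatttc
A match of letters is a description and not evidence of repression in this tissue.

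Mir132 was among the most abundant microRNA genes by assigned reads, and Mir212 was not. Mir132 received 33266 reads in replicate 2 and 46907 reads in replicate 1. Scaled to 1000000 reads assigned to microRNA genes (CPM), that was 11794 in replicate 2 (exact Clopper-Pearson 95% interval 11669 to 11921) and 13708 in replicate 1 (13585 to 13831). Mir132 averaged 12751 ± 1353 CPM (SD, n = 2), or 1.28% ± 0.14 of assigned reads. The SD was 10.6% of the mean, although the counting intervals of the libraries did not overlap.

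Mir212 received 1174 reads in replicate 2 and 677 reads in replicate 1. Its level was 416 CPM in replicate 2 (95% interval 393 to 441) and 198 CPM in replicate 1 (183 to 213). The mean was 307 ± 154 CPM (SD, n = 2), an SD of 50.3% of the mean, so Mir212 was known far less precisely than Mir132. No read lay on the opposite strand of either hairpin in either library, and the column that disregards strand held the same counts. A count of 0 allows up to 1.06 CPM in replicate 2 and 0.877 CPM in replicate 1 (3 reads). Intervals and floors cover counting error only, and the counts are of reads and not of molecules.

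By mean CPM, Mir132 ranked 13 of 389 detected genes, those that reached 10 reads in each library, and Mir212 ranked 146. In single libraries Mir132 ranked 18 in replicate 2 and 15 in replicate 1, and Mir212 ranked 135 in replicate 2 and 161 in replicate 1. With CPM divided by hairpin length, the ranks by mean were 11 and 146. The median detected gene had 105 CPM, which Mir132 exceeded 121-fold and Mir212 2.91-fold. Multimapping reads made up 38.2% of all reads in replicate 2 and 41.6% in replicate 1, and they were assigned to no gene. Genes with copies can therefore be counted too low, so these ranks, shares and folds hold for assigned reads only.

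**Figure D2:**
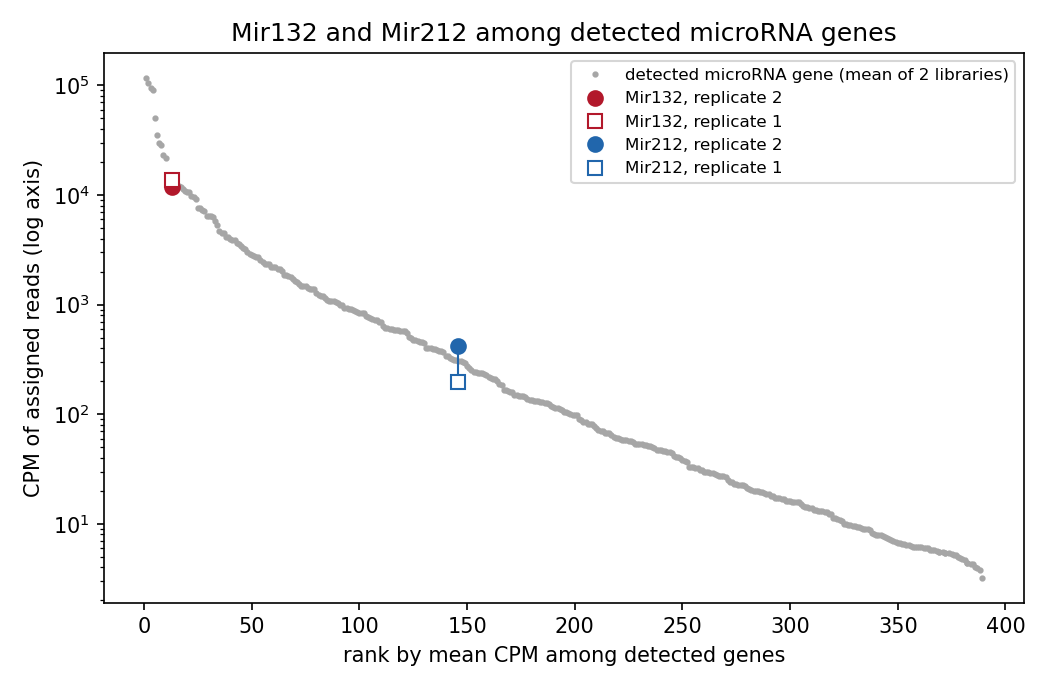
Mean CPM of assigned reads (log axis) of each detected microRNA gene is plotted against its rank, with both libraries of Mir132 and Mir212 as filled (replicate 2) and open (replicate 1) symbols. Mir132 sits at rank 13 near 12751 CPM with its libraries close together, and Mir212 sits at rank 146 with 416 CPM in replicate 2 and 198 CPM in replicate 1.

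The order of Mir132 among its closest neighbours was not settled by these libraries. Next above it stood Mir328, with 17114 CPM in replicate 2 and 11166 CPM in replicate 1, and next below it Mir151, with 10986 CPM in replicate 2 and 14440 CPM in replicate 1. The ranges of both overlapped that of Mir132, as did that of Mir23a, 2 places below. Mir433, 2 places above at 14517 ± 251 CPM (SD, n = 2), did not overlap it. The ranges of all 4 neighbours of Mir212 overlapped its own: Mir421 and Mir218-2 above it, and Mir153 and Mir1298 below it. Mir23a and Mir218-2 share 20 bases with a copy, so their levels are uncertain.

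Likeness of pattern could be measured over 2 libraries only, as the distance between genes on log2(CPM + 1). The nearest gene to Mir132 was Mir151 (distance 0.13), followed by Mir652 (0.24), Mir433 (0.32), Mir23a (0.36) and Mir29a (0.38). The nearest gene to Mir212 was Mir702 (0.19), followed by Mir153 (0.23), Mir218-2 (0.37), Mir877 (0.42) and Mir7080 (0.52). Mir212 lay at a distance of 7.78 from Mir132 and took place 145 among the genes around Mir132. Over 2 libraries this distance reflects level far more than co-variation.

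Within each library Mir132 outnumbered Mir212 by a wide margin, and the margin itself differed between the libraries. Replicate 2 held 28.3 reads of Mir132 for each read of Mir212 (exact 95% interval 26.7 to 30.1), and replicate 1 held 69.3 (64.2 to 74.9). Mir212 thus made up 3.41% of the 34440 reads of the pair in replicate 2 (95% interval 3.22 to 3.61) and 1.42% of the 47584 reads in replicate 1 (1.32 to 1.53). The intervals were far apart, and the ratio was 2.45-fold smaller in replicate 2. On the log2 scale the ratio of Mir132 to Mir212 averaged 5.47 ± 0.91 (SD, n = 2), and per base of hairpin it averaged 5.93 ± 0.91. A ratio within a library needs no scaling between libraries, so library size does not enter it.

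**Figure D3:**
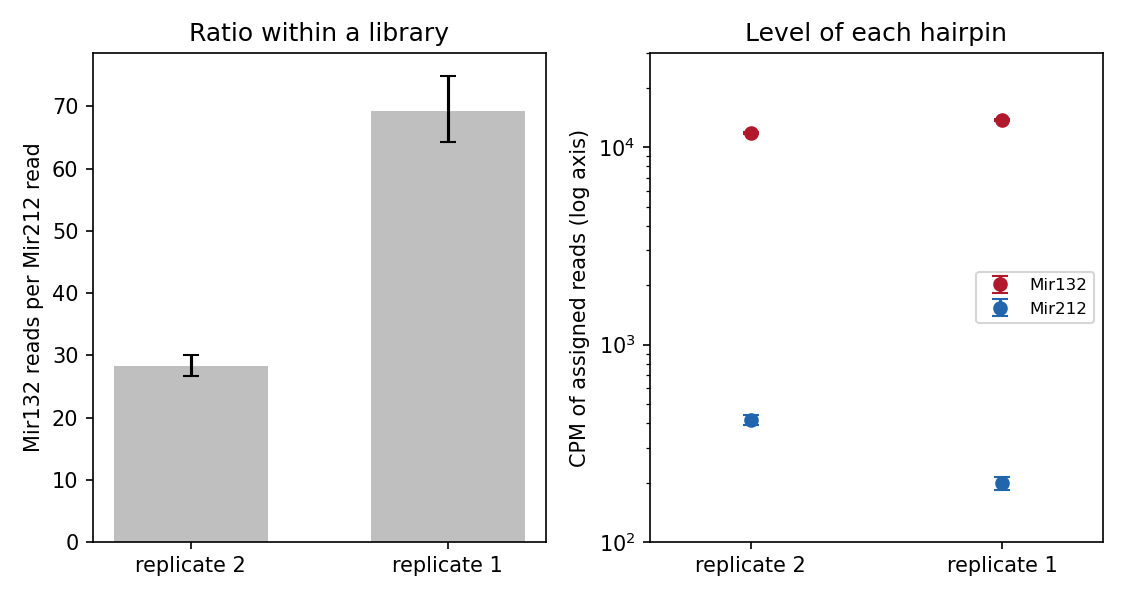
The left panel shows reads of Mir132 per read of Mir212 in each library with exact 95% intervals, and the right panel shows the CPM of each hairpin (log axis) with its exact 95% interval, which is smaller than the symbol for Mir132. The ratio was 28.3 in replicate 2 and 69.3 in replicate 1, with Mir212 higher and Mir132 lower in replicate 2.

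The members differed between the libraries in opposite directions. On counts scaled by the trimmed mean of M values (TMM), Mir132 was 1.24-fold lower in replicate 2, with a log2 ratio of replicate 2 over replicate 1 of -0.32 (95% interval -0.34 to -0.30; two-sided exact binomial test with Benjamini-Hochberg adjustment over 389 genes, adjusted p = 5.84e-206). Mir212 was 1.96-fold higher in replicate 2, with a log2 ratio of 0.97 (0.84 to 1.11; the same exact test, adjusted p = 1.08e-45). So 2 of 2 members were called, 1 in each direction. Of all 389 detected genes 67.6% were called, 33.9% as higher and 33.7% as lower in replicate 2, so a call by this test does not set the members apart. The test compares these 2 libraries beyond counting error and not conditions.

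Set beside the other genes, the difference of Mir132 was small and that of Mir212 moderate. By the size of the log2 ratio, Mir132 took place 265 and Mir212 place 94 of 389, where the ratios of all genes had a median of 0.053 and an SD of 0.92. Of the 22 other genes within 2-fold of the level of Mir132, 15 had a higher log2 ratio and 7 a lower one. Of the 58 other genes within 2-fold of the level of Mir212, 8 had a higher log2 ratio and 50 a lower one. With the common spread of the libraries as the error, the edgeR exact test called neither member (adjusted p = 1 for each), and it called 0.514% of the 389 genes, or 2, with 23 at an unadjusted p under 0.05. That error, a biological coefficient of variation of 0.41, comes from the same 2 libraries and so includes the difference under test.

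The log2 ratios between the libraries rose slightly with GC content of the whole hairpin. A straight line fitted over all detected genes rose by 0.023 per percentage point, where the SD of the ratios was 0.92. Among the 31 other genes within 5 percentage points of the GC content of Mir212, the median log2 ratio was 0.56 (quartiles 0.19 and 0.88). Among the 132 near Mir132 it was 0.095 (quartiles -0.28 and 0.66). After subtraction of that line, the log2 ratio of Mir212 was 0.55 and that of Mir132 was -0.47. The part of GC content in the differences of Mir212 and Mir132 was not tested. The GC content of the annotated arms was lower than that of the hairpins and was not used. It was 54.5% (3p) and 47.8% (5p) for Mir212, and 50% (3p) and 45.5% (5p) for Mir132.

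**Figure D4:**
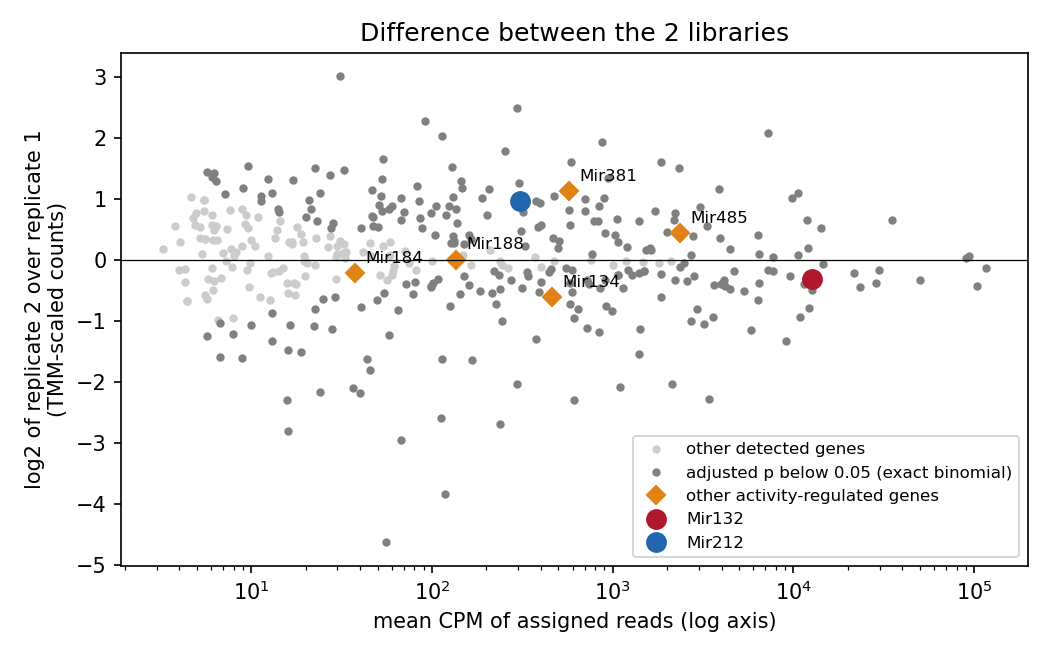
The log2 ratio of replicate 2 over replicate 1 on TMM-scaled counts is plotted against mean CPM (log axis) for each detected gene, with Mir132, Mir212 and the other genes of the activity-regulated list marked. Mir132 lies just under 0 at -0.32 and Mir212 near 1 at 0.97, inside the range of other genes of like level.

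Markers of other cell types also differed between the libraries, and their part in the differences of Mir132 and Mir212 was not tested. The counts of calls in these lists stand beside 33.9% of all detected genes called higher and 33.7% called lower. In bulk tissue, fewer cells of a type and less RNA per cell cannot be told apart. Neuron-enriched microRNAs took 2.38% of assigned reads in replicate 2 and 2.02% in replicate 1, with 12 of 16 list members detected, 8 called higher and 3 lower in replicate 2. Of those 12 genes 10 share 20 bases with a copy, and the copies Mir124a-2 and Mir124a-3 were at 0. Endothelial and mural microRNAs took 1.32% in replicate 2 and 2.17% in replicate 1, with all 3 lower in replicate 2, led by Mir143. Choroid plexus and ependymal microRNAs, led by Mir34c, took 0.164% in replicate 2 and 0.342% in replicate 1, with 3 of 5 called lower and 1 called higher. Epithelial microRNAs, led by Mir183, took 0.0111% in replicate 2 and 0.0712% in replicate 1, and all 6 detected members of 8 were called lower. The microglia and leukocyte list, led by Mir342, took 0.346% in replicate 2 and 0.407% in replicate 1, with 4 of 5 called lower. The oligodendrocyte list took 0.667% in replicate 2 and 0.503% in replicate 1, with 2 of 3 detected and called in opposite directions: Mir338 had a log2 ratio of 0.87 and Mir219a-2, which shares 20 bases with a copy, one of -0.26. The erythroid list took 0.00599% in replicate 2 and 0.00476% in replicate 1, and of its 3 genes only Mir451a was called, as higher (log2 ratio 0.53), while Mir486 (-0.050) and Mir144 (-0.12) were not. The neuron list was led by Mir128-1, which shares 20 bases with a copy. It had 7046 CPM in replicate 2 and 7355 CPM in replicate 1, and was called lower (log2 ratio -0.16). The detected neuron-enriched genes without a copy were Mir137 and Mir153, both called higher in replicate 2. Mir137 had 6832 CPM in replicate 2 and 5986 CPM in replicate 1. Mir153 had 436 CPM in replicate 2 and 170 CPM in replicate 1.

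Other microRNAs known as activity-regulated in neurons differed between the libraries in both directions. The list held 7 genes with Mir132 and Mir212 among them, all 7 were detected, and none shares 20 bases with a copy. Of the other 5 genes, 2 were called higher in replicate 2, 1 was called lower and 2 were not called. With Mir132 and Mir212 that made 5 of 7 called, 3 higher and 2 lower, which is near the 67.6% called over all detected genes. The median log2 ratio of the 7 was 0.0080, against 0.053 over all detected genes. The called genes among the other 5, Mir485, Mir381 and Mir134, all lie in 1 cluster on chromosome 12, so their calls are not independent. Mir485, known to act on presynaptic proteins, had 2798 CPM in replicate 2 and 1923 CPM in replicate 1, a log2 ratio of 0.44 (exact binomial, adjusted p = 4.25e-75). Mir381, a microRNA of the MEF2-regulated cluster on chromosome 12, had 804 CPM in replicate 2 and 344 CPM in replicate 1, with a log2 ratio of 1.13. Mir134, a dendritic microRNA of the same cluster known to limit spine size, had 378 CPM in replicate 2 and 540 CPM in replicate 1, with a log2 ratio of -0.61. Mir188 had 140 CPM in replicate 2 and 130 CPM in replicate 1, with a log2 ratio of 0.0080 (exact binomial, adjusted p = 0.955). Mir184 had 35.8 CPM in replicate 2 and 38.9 CPM in replicate 1, with a log2 ratio of -0.22 (exact binomial, adjusted p = 0.326), and neither was called. By the edgeR exact test all 7 had an adjusted p of 1.

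Mir132 carried most of the reads of that list. It held 72.1% of the list's reads in replicate 2 and 81.2% in replicate 1, while Mir212 held 2.54% in replicate 2 and 1.17% in replicate 1. The list as a whole took 1.66% ± 0.036 of assigned reads (SD, n = 2). Without Mir132 and Mir212 the remaining 5 genes took 0.357% on average, 0.416% in replicate 2 and 0.298% in replicate 1.

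The gap in level between Mir132 and Mir212 was wide but not the widest among neighbouring hairpins. Detected genes next to each other on 1 strand, no more than 10 kb apart, formed 106 pairs. The levels of a pair differed by a median of 2.73 on the log2 scale, or 6.62-fold, and those of Mir132 and Mir212 by 5.38, or 41.5-fold, which was place 14 of 106. Mir29a and Mir29b-1 led that order at 7.65. In many of the pairs before it a gene shares 20 bases with a copy: among the 65 pairs with no such gene, Mir132 and Mir212 took place 4.

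Other neighbouring hairpins also differed between the libraries. The log2 ratios of Mir132 and Mir212 lay 1.29 apart, place 27 of 106, where the median pair lay 0.71 apart and Mir380 and Mir323 were the furthest apart at 3.69. Both genes were called in 75 pairs, and in 36 of these they were called in opposite directions. Mir132 and Mir212 were among those 36. Over all detected genes, higher and lower calls were about as frequent, at 33.9% and 33.7%, so opposite calls do not set the pair apart. Neighbouring genes are not independent, and many pairs come from the cluster on chromosome 12.

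**Figure D5:**
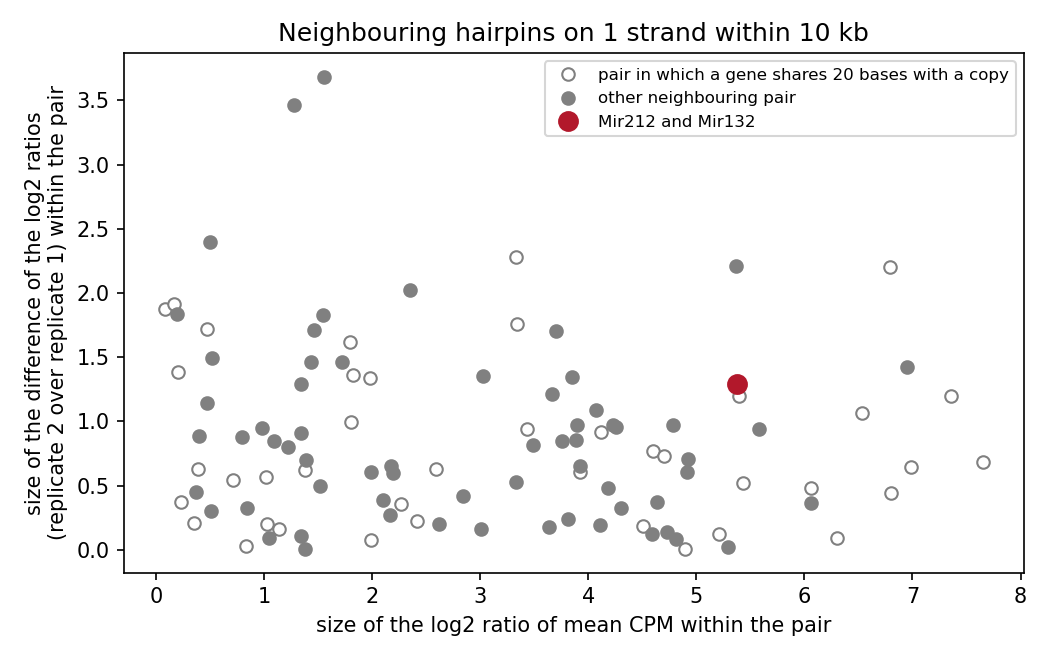
Each point is a pair of neighbouring detected hairpins on 1 strand within 10 kb, with the size of their log2 level ratio on the x axis and the size of the difference of their log2 ratios between libraries on the y axis; open points have a gene that shares 20 bases with a copy. Mir212 and Mir132 lie at 5.38 and 1.29, toward the right edge in level and above the median of 0.71 in the difference between libraries.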

How the data were processed

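For each library the authors deposited a table of raw counts of reads by microRNA gene. Of its 3 count columns, the values show 1 to disregard strand, 1 to hold the gene's own strand (used here) and 1 the opposite strand. Per text notes deposited beside the tables, the assembly was mm10 and the annotation M21, taken as GENCODE M21. No aligner, counter or trimming step is named in the sources used here. The 4 rows that name no gene held 67.0% of all reads in replicate 2 and 64.8% in replicate 1 and did not enter the library sizes. Assigned reads numbered 2820468 in replicate 2 and 3421977 in replicate 1. All 2202 IDs matched M21.

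A gene was called detected when each library held 10 or more of its reads. TMM factors and the exact test came from edgeR 4.0.16 and size factors from DESeq2 1.42.0, in R 4.3.3. Binomial tests and Clopper-Pearson intervals came from scipy 1.17.1, with an adjusted p threshold of 0.05. A quasi-likelihood test needs 2 groups and was not run. Pseudocount 1 CPM served distances only.

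Other genes were named by a rule: the 2 next above and below each member in level, the 5 nearest to each, the whole activity-regulated list, and the highest gene of each marker list. Outside it, the pairs that lead an order, Mir137, Mir219a-2, Mir486, Mir144 and the Mir124a copies at 0 were named after their values were seen, and the target genes from textbook knowledge; 1 further target searched is not reported here. The members and lists were chosen with earlier results of these data known. Alternatives changed the library size, count column, filter, test, GC content, pair distance and replicates.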

Additional observations from a re-analysis of the deposited data

How the results depend on the processing

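Of 46 alternative values that use both libraries, 34 stayed within the spread between replicates, within 1.5 times a count or place, or on the same side of the threshold. Mir132 stayed lower and Mir212 higher in replicate 2 under every scaling, filter and count column run. With all reads of the tables as library size, the levels were 4359 CPM for Mir132 and 103 CPM for Mir212. With single libraries, the rank of Mir132 lay between 15 and 18. Among the 308 detected genes sharing no 20 bases, Mir212 ranked 115, against 146 among all 389 detected genes. By the edgeR exact test, 2 genes differed between the libraries, and the log2 ratios of -0.32 for Mir132 and 0.97 for Mir212 were not called. The activity-regulated list took 0.357% without Mir132 and Mir212 and 1.78% by reads without regard to strand. The second differs only by its total, since the list's reads were the same in both columns while assigned reads numbered 2644223 in replicate 2 and 3187613 in replicate 1 without regard to strand. The place of the pair by level was 9 of 77 where each gene reached 100 reads in every library and 4 of 65 among pairs sharing no 20 bases. By the gap of log2 ratios it was 15 of 65 within 1 kb and 17 of 65 among pairs sharing no 20 bases. The ranks per base of hairpin were added after seeing the data. No paired analysis was possible because there is 1 group. With 2 libraries and 1 donor record, the counting error of Mir132 and Mir212 is smaller than their difference between libraries, and the spread between animals is not known.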
